A study of Homo sapiens with 12 samples.

Results

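Nuclear receptors other than the steroid receptors were followed in MDA-MB-453, a human breast tumour line in long use. They are 30 genes, taken by symbol from the 60670 genes of the deposited counts table: the retinoid, fatty acid, vitamin D and thyroid hormone receptors, the orphan receptors of the NR2, NR4A, ROR and estrogen-related families, and the receptors best known from liver and gut. The libraries came from DHT-treated cells (10 nM dihydrotestosterone, an androgen, for 6 h; n = 6) and Vehicle cells (0.001% ethanol for 6 h; n = 6), both after 72 h of growth in high-glucose medium with serum. The 6 replicates of each treatment were consecutive passages of this single line, so p-values measure the spread between passages. The series is about the transcription factor AP-2β in hormone-sensing mammary cells. The comparison addresses which of these receptors the cells express and which move with androgen.

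Nuclear receptors are transcription factors with a zinc-finger DNA-binding domain and, in nearly all of them, a pocket that can hold a small lipid-like ligand. The retinoic acid, thyroid hormone, vitamin D and peroxisome proliferator-activated receptors bind DNA as heterodimers with a retinoid X receptor (RXR), mostly at repeats of the hexamer AGGTCA, whereas most steroid receptors bind as homodimers at inverted repeats of AGAACA. Orphan receptors are those found before any ligand was known for them, and several work without one. Androgen signalling is active in luminal tumours of the apocrine kind, of which MDA-MB-453 is a widely used model, and ligands of the retinoid, vitamin D and PPAR receptors have long been studied in breast cells for their effects on growth and differentiation.

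The bases upstream of 4 receptor genes are shown because these were the 4 that passed the test once both replicate 2 libraries were left out, as described further on. Each run is the 250 bases before a RefSeq transcription start, 5′ to 3′ on the gene's strand, on GRCh38.p14. Capitals mark a match to AGAACA or AGGTCA on either strand.
PPARD promoter, chr6:35342308-35342557, plus strand: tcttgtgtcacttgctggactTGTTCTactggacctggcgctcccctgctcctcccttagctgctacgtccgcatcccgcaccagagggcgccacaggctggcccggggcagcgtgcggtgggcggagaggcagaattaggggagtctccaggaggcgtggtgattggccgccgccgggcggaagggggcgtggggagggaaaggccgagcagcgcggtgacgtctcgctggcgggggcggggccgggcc
NR6A1 promoter, chr9:124771312-124771561, minus strand: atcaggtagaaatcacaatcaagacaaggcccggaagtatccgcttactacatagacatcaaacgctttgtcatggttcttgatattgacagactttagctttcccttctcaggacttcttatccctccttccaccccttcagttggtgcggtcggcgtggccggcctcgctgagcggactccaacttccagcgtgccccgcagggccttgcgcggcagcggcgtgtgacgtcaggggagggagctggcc
RORA promoter, chr15:60627531-60627780, minus strand: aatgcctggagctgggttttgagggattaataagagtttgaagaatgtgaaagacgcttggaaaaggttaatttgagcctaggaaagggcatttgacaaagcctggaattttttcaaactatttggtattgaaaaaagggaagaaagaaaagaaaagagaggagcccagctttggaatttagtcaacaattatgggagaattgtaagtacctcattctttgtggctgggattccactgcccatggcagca
ESRRA promoter, chr11:64305274-64305523, plus strand: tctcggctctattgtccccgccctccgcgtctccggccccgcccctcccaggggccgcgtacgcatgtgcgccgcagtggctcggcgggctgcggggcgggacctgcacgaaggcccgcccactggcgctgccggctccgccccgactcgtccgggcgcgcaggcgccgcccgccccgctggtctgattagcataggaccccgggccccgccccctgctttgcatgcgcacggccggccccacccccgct
The PPARD window held 1 match to AGAACA, read as TGTTCT on the plus strand, with its first base 229 bases before the start. The other 3 windows held neither hexamer. The RORA window lies inside the span of the gene, before the start of its shorter transcripts. The ESRRA window ends at 64305523, inside the gene span given further on, which starts at 64305497. AGAACA occurred on either strand in 12.4% of 35116 RefSeq windows of the same length and AGGTCA in 12.1%, and the 2 hexamers cannot match the same 6 bases. Of the 52 windows of the 25 receptor genes that matched the table, 9 held AGAACA and 9 held AGGTCA. The complete inverted repeat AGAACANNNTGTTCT was in 1 of the 35116 windows and in none of these 52, and neither the estrogen-related receptor element TCAAGGTCA nor the direct repeat AGGTCANAGGTCA, which both contain AGGTCA, was in any of the 52. A match describes the letters of a window only.

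The deepest library held 25678781 counts (DHT replicate 2) and the shallowest 4346465 counts (Vehicle replicate 6), so that 1 count was worth 0.0389 CPM (counts scaled to a common library total) in DHT replicate 2 and 0.230 CPM in Vehicle replicate 6. Both replicate 2 libraries stood apart on the first principal component (53.9% of the variance), and Vehicle replicate 5 lay apart on the second. The androgen-induced co-chaperone gene FKBP5 was raised to 350.1 ± 63.8 CPM in DHT libraries, against 82.4 ± 15.2 CPM in Vehicle libraries (SD, n = 6 each). All 12 luminal epithelial markers were detected, with a summed level of 6902 to 12339 CPM in DHT libraries and 8691 to 17756 CPM in Vehicle libraries, and FOXA1 and GATA3 were lowered. Leukocyte markers summed to 0.0456 to 0.337 CPM in DHT libraries and 0 to 0.854 CPM in Vehicle libraries, with CD3E at 0 in every library. Endothelial markers summed to 0 to 0.641 CPM in DHT libraries and 0.0741 to 1.47 CPM in Vehicle libraries. Basal markers summed to 3.47 to 4.49 CPM in DHT libraries and 11.5 to 18.4 CPM in Vehicle libraries, 1 of the 2 tested (TP63) being lowered. Fibroblast markers summed to 59.6 to 75.5 CPM in DHT libraries and 76.2 to 110.5 CPM in Vehicle libraries, mostly COL1A1, and 0 of 3 tested passed, while all 3 were lower at an unadjusted p under 0.05 (median log2 fold change -1.10). Liver markers summed to 4.73 to 29.7 CPM in DHT libraries and 13.2 to 54.1 CPM in Vehicle libraries, nearly all ALB, with APOB at 0 in every library. The part of these markers in the receptor values was not tested.

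Of the 30 receptor genes, 29 had at least 1 count in some library and 20 had a mean of at least 1 CPM in Vehicle libraries. Transcript levels were compared between genes per kilobase of gene length (CPM per kb), over all 12 libraries. NR2F1 (COUP-TFI), an orphan receptor known for its role in neural development, stood first at 73.4 CPM per kb and held 28.3% of the summed level of the 30 genes. It was followed by PPARD at 35.7, NR2F6 at 33.4, VDR at 22.0, NR2F2 at 19.1, RXRA at 16.2, RXRB at 16.0 and ESRRA at 13.3 CPM per kb. The first 4 genes held 63.4% of the summed level and the first 8 held 88.3%. A middle group ran from NR2C2 at 6.53 CPM per kb through THRB (5.91), NR2C1 (5.03), RARG (3.74), RARA (2.27), THRA (2.05) and PPARA (1.31) to RORA at 1.00 CPM per kb. NR1I3, NR4A2, NR4A1, ESRRG, RARB and NR6A1 lay between 0.642 and 0.158 CPM per kb, and the other 8 at or below 0.0552 CPM per kb. Over the 12 libraries, the ranges of every neighbouring pair in this order overlapped. NR2F1 ran from 51.2 to 91.9 CPM per kb and PPARD from 29.1 to 53.1 CPM per kb, for example. Within each of the 12 libraries NR2F1 nevertheless lay above PPARD, so overlapping ranges alone do not leave the order of a pair undecided. With the mean transcript length given in the authors' deposited table in place of the gene length, 7 of the first 8 genes were the same, and NR2C2 took the place of ESRRA.

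**Figure D1:**
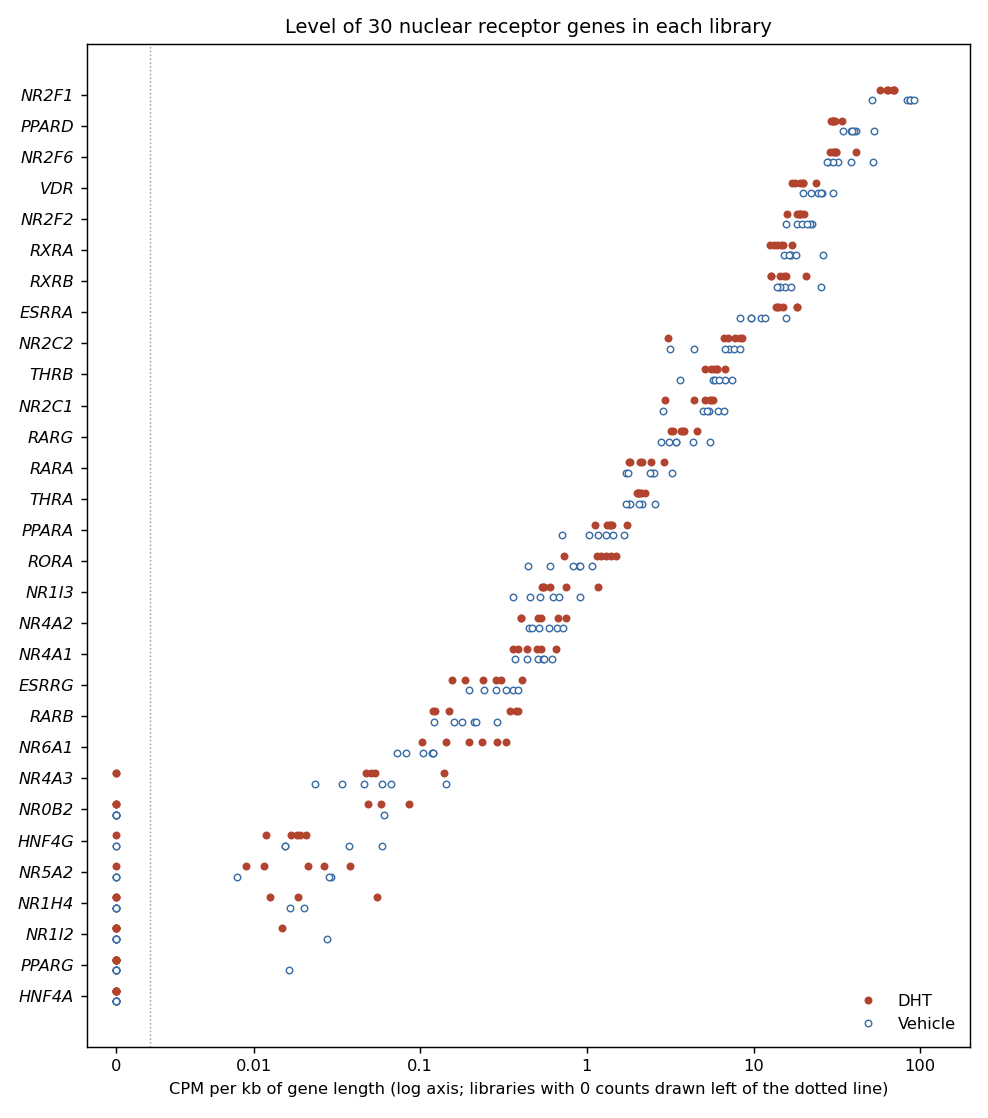
Level of each of the 30 receptor genes in each library, in CPM per kb of gene length on a log axis, with genes ordered by their mean over all libraries, DHT libraries as filled points above and Vehicle libraries as open points below. The levels run from 91.9 CPM per kb for NR2F1 in its highest library to 0 in all 12 libraries for HNF4A. The ranges of neighbouring genes over the libraries overlap throughout.

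No receptor gene passed the test between DHT and Vehicle libraries with all 12 libraries and treatment as the only term. The filter on low counts kept 21 of the 30 genes, and edgeR's quasi-likelihood test with Benjamini-Hochberg adjustment over 16355 genes called 0 of these 21, against 464 of all genes tested (2.84%; 1.96% raised and 0.88% lowered). At an unadjusted p under 0.05 there were 7 of 21 (33.3%), against 12% of all genes tested. NR6A1, RORA and ESRRA were the 3 with higher values in DHT libraries (6.59% of all genes tested were higher at this level). PPARD, RXRA, VDR and NR2F1 were the 4 with lower values (5.41% of all genes tested). The median log2 fold change of the 21 was -0.08, beside -0.05 for all genes tested, and 14 of the 21 were below 0. Summed over the 30 genes, receptor transcripts came to 1245 to 1368 CPM in DHT libraries and 1143 to 1733 CPM in Vehicle libraries, and these ranges overlapped. Values spread less in DHT libraries, with a median coefficient of variation of 14.5% in DHT and 23.3% in Vehicle libraries over the 21 tested receptor genes, and 16 of the 21 had the smaller one in DHT, as did 77.0% of all genes tested. In bulk RNA, less RNA per cell and fewer cells with a transcript cannot be told apart.

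The result rested in part on the replicate 2 libraries. When both were left out, 4 of 22 tested receptor genes passed, against 920 of 16452 genes (5.59%; 3.7% raised and 1.9% lowered). The 3 that rose were NR6A1 by 1.14 on the log2 scale (adjusted p = 0.0197), RORA by 0.60 (adjusted p = 0.0281) and ESRRA by 0.57 (adjusted p = 0.0121), all by edgeR. PPARD fell by 0.33 on the log2 scale (adjusted p = 0.0335). Over the alternative settings with treatment as the only term, the adjusted p ran from 0.0172 to 0.219 for NR6A1, from 0.0281 to 0.400 for RORA and from 0.0121 to 0.265 for ESRRA, and NR6A1 and ESRRA passed in 2 settings each and RORA in 1. RXRA, the common heterodimer partner, came next with a log2 fold change of -0.26 (adjusted p = 0.0996). DESeq2 with all 12 libraries called 1 receptor gene, PPARD (adjusted p = 0.0140), against 778 of 19002 genes (4.09%). limma-voom called 0 receptor genes, against 458 of 16355 genes. With the replicate number as a block, edgeR called 4 receptor genes, against 1286 of 16355 genes. They were RORA (adjusted p = 0.0052), ESRRA (adjusted p = 0.0207), PPARD (adjusted p = 0.0293) and NR6A1 (adjusted p = 0.0294). Same-numbered libraries were not taken as pairs, for reasons given at the end. The authors' deposited table of their own comparison lists 20 of the 30 genes and gives an adjusted p under 0.05 to 2 of them. The share of all genes in that table under 0.05 is not given here, so the 2 cannot be set against it. RORA has a log2 fold change of 0.58 and an adjusted p of 0.0155 in the authors' deposited table. ESRRA has 0.53 and 0.0405, and PPARD -0.37 and 0.127, in the authors' deposited table.

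**Figure D2:**
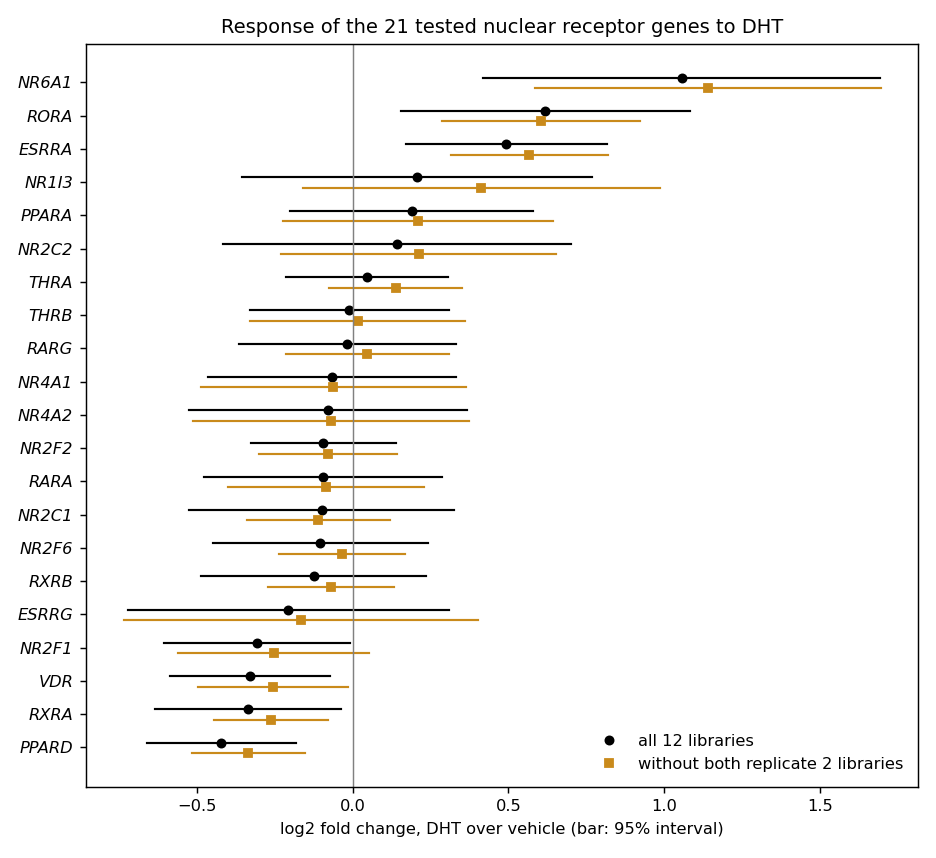
Log2 fold change of the 21 tested receptor genes, DHT over Vehicle, with all 12 libraries (black circles) and without both replicate 2 libraries (orange squares), bars giving the 95% interval of each fit. NR6A1, RORA and ESRRA lie above 0 and NR2F1, VDR, RXRA and PPARD below 0 with all libraries, and the intervals of the other 14 genes include 0.

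Among the retinoid receptors, RARA, RARB and RARG bind all-trans retinoic acid. RXRA and RXRB are heterodimer partners of these and of the thyroid hormone, vitamin D and peroxisome proliferator-activated receptors. RXRA (chromosome 9, 134317098 to 134440585, plus strand, GRCh38) had values of 152 to 206 CPM with a median of 171 in DHT libraries and of 183 to 313 CPM with a median of 201 in Vehicle libraries. The groups overlapped, and the RXRA means were 173 ± 19.1 CPM in DHT and 219 ± 47.4 CPM in Vehicle libraries (SD, n = 6 each). The log2 fold change was -0.34 (95% interval -0.63 to -0.04), which did not pass (edgeR, adjusted p = 0.322). RXRB had 49.8 to 80.8 CPM with a median of 57.6 in DHT libraries and 53.7 to 99.1 CPM with a median of 57.8 in Vehicle libraries, the highest of each group being replicate 2. Its log2 fold change was -0.13 (95% interval -0.49 to 0.24; edgeR, adjusted p = 0.899). RARG averaged 19.1 ± 2.52 CPM in DHT and 19.2 ± 4.95 CPM in Vehicle libraries (SD, n = 6 each), and RARA 10.4 ± 2.00 CPM in DHT and 11.1 ± 2.64 CPM in Vehicle libraries (SD, n = 6 each). RARB, itself a known retinoic acid target, had 76 counts over the 6 DHT libraries and 52 over the 6 Vehicle libraries and was too low to be tested.

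PPARD, a receptor for fatty acids that acts widely on lipid oxidation, was the receptor that separated the groups most cleanly. PPARD (chromosome 6, 35342558 to 35428191, plus strand, GRCh38) had 129.6 to 150.2 CPM with a median of 134 in DHT libraries, and 153 to 237 CPM with a median of 176 in Vehicle libraries. Every DHT library lay below every Vehicle library, as for 0.991% of all genes tested. No other tested receptor gene had groups without overlap, in this direction or with every DHT library above (2.28% of all genes tested, 3.27% in either direction). The means were 136 ± 7.23 CPM in DHT and 182 ± 28.5 CPM in Vehicle libraries (SD, n = 6 each), a ratio of 0.746. The log2 fold change of -0.42 (SE 0.11, 95% interval -0.66 to -0.18) missed the threshold (edgeR, adjusted p = 0.0631), and it passed without Vehicle replicate 5 (adjusted p = 0.0255), which had the lowest Vehicle value. Over 20 alternative settings with treatment as the only term, the adjusted p of PPARD ran from 0.0140 to 0.330, and PPARD passed in 4 of them. PPARA, the form best known from liver, averaged 18.4 ± 2.67 CPM in DHT and 16.1 ± 4.37 CPM in Vehicle libraries (SD, n = 6 each), with a log2 fold change of 0.19 (95% interval -0.20 to 0.58). PPARG, the adipocyte form, had 0 counts in DHT libraries and 1 count in Vehicle libraries.

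VDR binds the active form of vitamin D. VDR (chromosome 12, 47841537 to 47943048, minus strand, GRCh38) had 96.8 to 134 CPM with a median of 110.3 in DHT libraries and 112 to 170.2 CPM with a median of 141 in Vehicle libraries. Most DHT values lay below most Vehicle values, but the groups overlapped. The means were 111 ± 13.2 CPM in DHT and 139 ± 19.6 CPM in Vehicle libraries (SD, n = 6 each), with a log2 fold change of -0.33 (95% interval -0.58 to -0.07) that did not pass (edgeR, adjusted p = 0.227). The thyroid hormone receptor genes THRA and THRB had nearly equal means in the groups. THRA averaged 15.3 ± 0.663 CPM in DHT and 14.7 ± 2.37 CPM in Vehicle libraries (SD, n = 6 each), with a log2 fold change of 0.05 (95% interval -0.21 to 0.30). THRB averaged 64.5 ± 6.00 CPM in DHT and 65.0 ± 14.3 CPM in Vehicle libraries (SD, n = 6 each), with a log2 fold change of -0.01 (95% interval -0.33 to 0.31).

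The NR2 orphan receptors made up the most abundant class, with 516 to 640.3 CPM in sum in DHT libraries and 497 to 729 CPM in Vehicle libraries. NR2F1 (chromosome 5, 93583222 to 93594611, plus strand, GRCh38) had 247 to 302 CPM with a median of 287 in DHT libraries and 221 to 396 CPM with a median of 374 in Vehicle libraries. In all, 5 Vehicle libraries lay above every DHT library, and Vehicle replicate 5, at 221 CPM, lay below them all. Its log2 fold change of -0.31 (95% interval -0.61 to -0.01) did not pass (edgeR, adjusted p = 0.393), whereas it passed without Vehicle replicate 5 (adjusted p = 0.0234; 0.0234 to 0.675 over the same alternatives as for PPARD). NR2F2 (COUP-TFII), the paralog with roles in vessels and stroma, had 103 to 130.2 CPM with a median of 122 in DHT libraries and 102 to 145 CPM with a median of 131 in Vehicle libraries. Its log2 fold change was -0.09 (95% interval -0.33 to 0.14; edgeR, adjusted p = 0.874). NR2F6, a more distant relative known as a repressor, had 77.1 to 111 CPM with a median of 82.8 in DHT libraries and 74.1 to 139 CPM with a median of 82.7 in Vehicle libraries, with a log2 fold change of -0.10 (95% interval -0.45 to 0.24; edgeR, adjusted p = 0.915). The testicular receptors NR2C1 (TR2) and NR2C2 (TR4), which bind AGGTCA repeats, varied widely between libraries. NR2C1 averaged 31.3 ± 6.70 CPM in DHT and 33.6 ± 8.37 CPM in Vehicle libraries, and NR2C2 81.0 ± 23.5 CPM in DHT and 73.4 ± 23.6 CPM in Vehicle libraries (SD, n = 6 each). Close paralogs such as NR2F1 and NR2F2 can share short reads, and the values leave that uncertainty in place.

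RORA, a receptor that activates clock and lipid genes from response elements it binds as a monomer, had higher values in DHT libraries. RORA (chromosome 15, 60488284 to 61229302, minus strand, GRCh38) had 12.5 to 25.6 CPM with a median of 21.4 in DHT libraries and 7.56 to 18.3 CPM with a median of 14.6 in Vehicle libraries. The lowest value of each group was its replicate 2 library, and apart from these every DHT library lay above every Vehicle library. The means were 20.7 ± 4.55 CPM in DHT and 13.5 ± 3.89 CPM in Vehicle libraries (SD, n = 6 each), with a log2 fold change of 0.62 (SE 0.22, 95% interval 0.15 to 1.08). This did not pass with all libraries (edgeR, adjusted p = 0.202) nor with any single library left out (adjusted p 0.0611 to 0.400). NR6A1 (germ cell nuclear factor), an orphan receptor that represses pluripotency genes in mouse embryos, was the tested member with the largest log2 fold change, 1.06 (SE 0.30, 95% interval 0.42 to 1.69). NR6A1 (chromosome 9, 124517275 to 124771311, minus strand, GRCh38) had 0.729 to 2.32 CPM with a median of 1.53 in DHT libraries and 0.519 to 0.854 CPM with a median of 0.788 in Vehicle libraries, from 14 to 36 counts per DHT library and 4 to 14 per Vehicle library. Its Vehicle mean of 0.730 CPM was under the 1 CPM used above for expressed genes. Only DHT replicate 2 lay within the Vehicle range, and the adjusted p was 0.0851 with all libraries (edgeR) and 0.0172 without DHT replicate 2. NR5A2 (LRH-1), an orphan receptor of liver, gut and ovary, had 11 counts in DHT and 5 counts in Vehicle libraries and was not tested.

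ESRRA, an orphan receptor that drives genes of mitochondrial energy metabolism together with PGC-1 coactivators, also had higher values in DHT libraries. ESRRA (chromosome 11, 64305497 to 64316743, plus strand, GRCh38) had 42.5 to 56.8 CPM with a median of 45.4 in DHT libraries and 25.9 to 48.6 CPM with a median of 32.1 in Vehicle libraries. Vehicle replicate 2 was the only Vehicle library that reached the DHT values. The means were 48.2 ± 6.62 CPM in DHT and 34.2 ± 7.97 CPM in Vehicle libraries (SD, n = 6 each), a ratio of 1.41. The log2 fold change of 0.49 (SE 0.15, 95% interval 0.17 to 0.82) did not pass with all libraries (edgeR, adjusted p = 0.123) and passed without Vehicle replicate 2 (adjusted p = 0.0137). ESRRA overlaps TRMT112 on the opposite strand, whose level was 159 ± 49.8 CPM in DHT and 163 ± 55.4 CPM in Vehicle libraries (SD, n = 6 each; edgeR, adjusted p = 0.983). The strand setting of the counting was not given in the sources used here, so reads of these 2 genes cannot be told apart where they overlap. The same limit holds for other receptor genes with an opposite-strand neighbour. Examples are RXRB with SLC39A7 (mean 227 CPM in DHT and 261 CPM in Vehicle libraries), NR2F1 with NR2F1-AS1 (33.5 and 39.6 CPM) and NR2C2 with MRPS25 (79.6 and 62.3 CPM). ESRRG, the relative of ESRRA in heart and kidney, averaged 2.88 ± 1.01 CPM in DHT and 3.27 ± 0.793 CPM in Vehicle libraries (SD, n = 6 each).

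**Figure D3:**
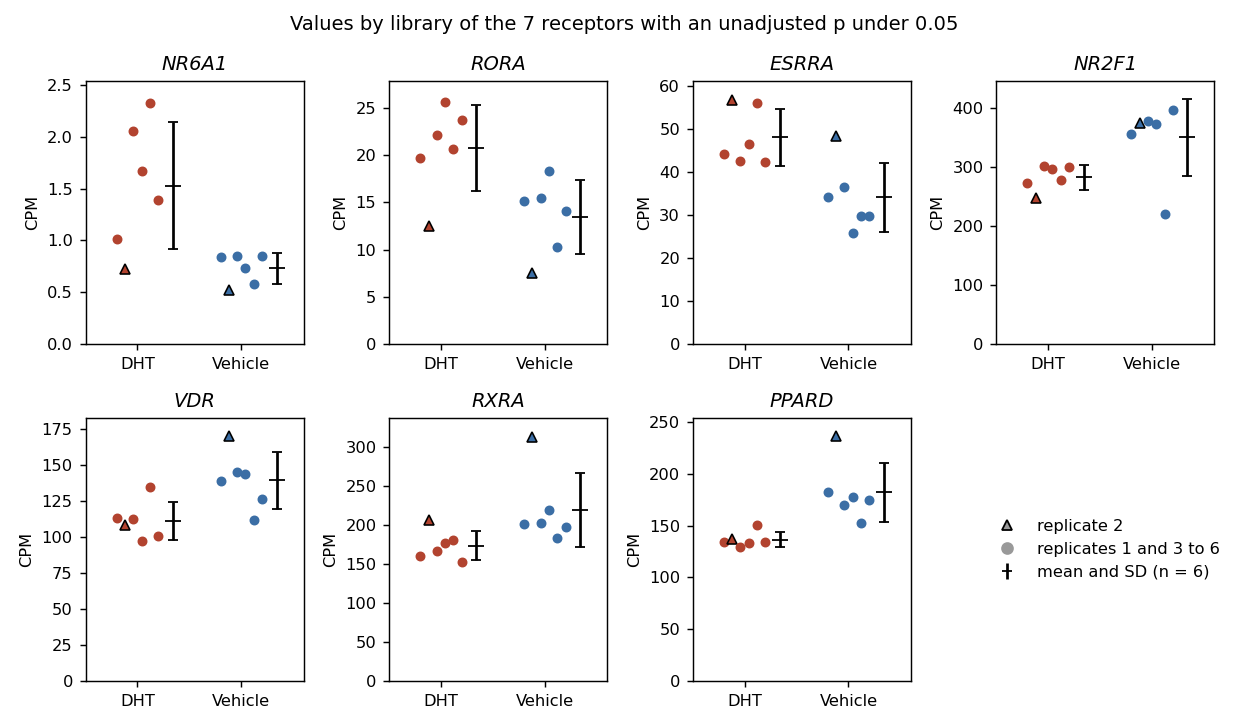
CPM in each library of the 7 receptor genes with an unadjusted p under 0.05, DHT left and Vehicle right in each panel, with triangles for replicate 2, circles for the other replicates, and the mean and SD of 6 libraries as a bar. PPARD has every DHT point at or below 150.2 CPM and every Vehicle point at or above 153 CPM, and in the other 6 panels the groups overlap.

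The NR4A receptors are immediate early genes that act without a ligand. NR4A1 averaged 3.48 ± 0.776 CPM in DHT and 3.68 ± 0.650 CPM in Vehicle libraries, and NR4A2 2.16 ± 0.560 CPM in DHT and 2.25 ± 0.430 CPM in Vehicle libraries (SD, n = 6 each). NR4A3 had 26 counts in DHT and 33 counts in Vehicle libraries and was not tested. The receptors known from liver and gut were low or at the floor. NR1I3 (CAR), a xenobiotic sensor, averaged 2.24 ± 0.789 CPM in DHT and 1.92 ± 0.631 CPM in Vehicle libraries (SD, n = 6 each), beside its opposite-strand neighbour TOMM40L at 63.5 ± 6.54 CPM in DHT and 64.0 ± 8.21 CPM in Vehicle libraries. HNF4G, a liver and gut lineage factor, had 6 counts in DHT and 9 counts in Vehicle libraries, and the bile acid receptor gene NR1H4 (FXR) had 4 in DHT and 2 in Vehicle libraries. The gene of the corepressor NR0B2 (SHP) had 3 counts in DHT and 1 count in Vehicle libraries, and the xenobiotic receptor gene NR1I2 (PXR) had 1 in DHT and 2 in Vehicle libraries. HNF4A, a master regulator of liver genes, had 0 counts in all 12 libraries, and a floor of 3 counts over a group allows up to 0.0340 CPM in DHT and 0.0393 CPM in Vehicle libraries. NR0B2, NR1I2, PPARG and HNF4A were at or under that floor in both groups. For the 14 tested genes with an unadjusted p of 0.05 or more, log2 fold changes lay between -0.21 and 0.21 and the bounds of their 95% intervals between -0.72 and 0.77.

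The replicate 2 libraries differed from the rest in these genes as in many others. RARA, RARG, RXRB and NR2F6 were higher in both replicate 2 libraries than in each of the other 10, as were 22% of all genes tested, with ratios of mean CPM of 1.45, 1.44, 1.59 and 1.52. NR2C1 was lower in both than in each of the other 10, with a ratio of 0.534, as were 20.3% of all genes tested. These 5 of 21 tested receptor genes compare with 42.3% of all genes tested that lay outside the other 10 libraries in either direction. NR2C2 and RORA had ratios of 0.525 and 0.542 but overlapped the other libraries. Across the 20 receptor genes with a GC percent in the authors' deposited table, the log2 ratio of replicate 2 to the other libraries had a Spearman rho of 0.76 with GC percent. This is across genes of the same 12 libraries, which are not independent of each other, and across 14559 genes the rho was 0.50. The part of base composition or RNA quality in this was not tested.

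**Figure D4:**
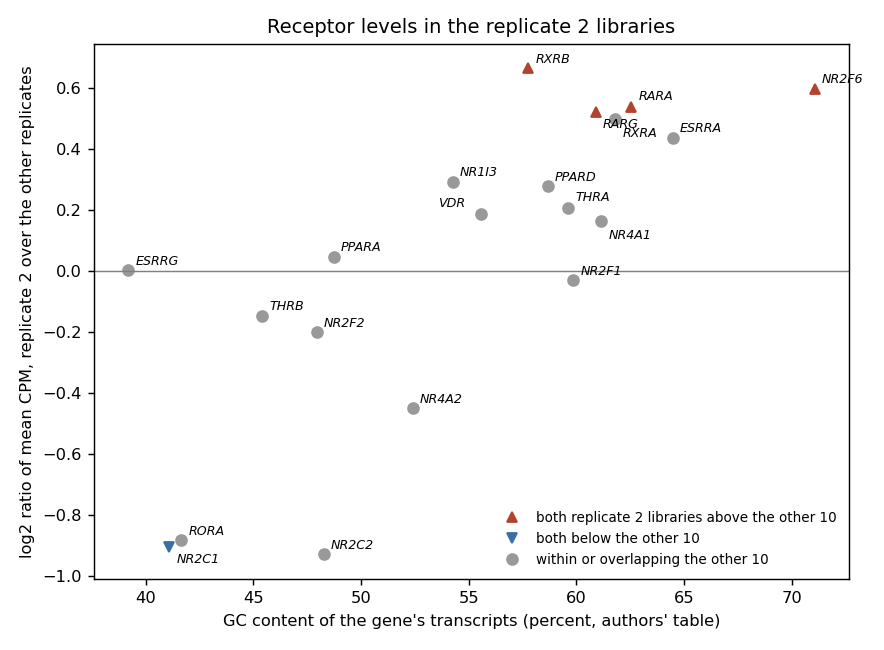
Log2 ratio of mean CPM in the 2 replicate 2 libraries over the other 10 libraries, against the GC percent of each gene's transcripts in the authors' deposited table, for 20 receptor genes. Upward triangles mark the 4 genes with both replicate 2 libraries above the other 10 and the downward triangle marks NR2C1, with both below, and the Spearman rho is 0.76.

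Some steroid receptor genes of the same cells were set beside the 30 genes. The glucocorticoid receptor gene NR3C1 averaged 91.5 CPM in DHT and 97.1 CPM in Vehicle libraries (edgeR, adjusted p = 0.912). ESR1 had 11 counts in DHT and 29 counts in Vehicle libraries, and the progesterone receptor gene PGR 13 in DHT and 26 in Vehicle libraries.

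Genes that these receptors are known to control were counted by pathway, beside 2.84% of all genes tested that passed. At an unadjusted p under 0.05 there were 12% of all genes tested. Among 28 genes of retinoid metabolism and retinoic acid response, 10 were tested and 0 passed in either direction (0 at an unadjusted p under 0.05), with a median log2 fold change of 0.04. Among 28 PPAR target genes, 14 were tested, 1 passed upward and 0 downward, with a median of -0.13. At an unadjusted p under 0.05, 1 was higher and 2 were lower. The lower genes were CPT1A (log2 fold change -0.52) and ACAA2 (-0.78), neither of which passed. ACSL1, an acyl-CoA synthetase, rose to 573 ± 45.6 CPM in DHT libraries, against 378 ± 61.2 CPM in Vehicle libraries (SD, n = 6 each; log2 fold change 0.60; edgeR, adjusted p = 0.0227). Its call was lost, at adjusted p up to 0.0697, without DHT replicate 1, 3 or 6 or Vehicle replicate 3 or 4. Among 20 vitamin D target genes, 10 were tested and 1 passed, upward, with a median of 0.15. It was the phosphatase gene DUSP10, at 58.2 ± 12.8 CPM in DHT and 17.4 ± 3.67 CPM in Vehicle libraries (SD, n = 6 each; log2 fold change 1.75; edgeR, adjusted p = 5.72e-05). At an unadjusted p under 0.05, 2 vitamin D target genes were higher and 0 were lower. These were DUSP10 and CYP27B1 (log2 fold change 0.35), of which CYP27B1 did not pass. CYP24A1, also in this list, had 0 counts in both groups. Among 25 bile acid and xenobiotic target genes, 6 were tested and 0 passed (0 at an unadjusted p under 0.05), with a median of -0.16.

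Among 18 immediate early and CREB-linked genes, the class to which NR4A1 to NR4A3 belong, 15 were tested, 3 passed upward and 0 downward, and the median log2 fold change was -0.06. JUN stood at 44.6 ± 6.23 CPM in DHT and 24.7 ± 3.25 CPM in Vehicle libraries, and the clock gene PER1 at 22.7 ± 2.41 CPM in DHT and 12.6 ± 2.72 CPM in Vehicle libraries (SD, n = 6 each), with every DHT library above every Vehicle library in both. SIK1, a CREB-induced kinase gene with a near-identical annotated copy, stood at 2.72 ± 0.667 CPM in DHT and 1.12 ± 0.380 CPM in Vehicle libraries (SD, n = 6 each; edgeR, adjusted p = 0.0222), a call that was lost without DHT replicate 1, 3, 4, 5 or 6 or Vehicle replicate 4 (adjusted p up to 0.0590). Among 18 genes of the estrogen-related receptor and PGC-1 programme, all tested, 1 passed upward and 0 downward, with a median of 0.00. PPARGC1B, the gene of a coactivator of ESRRA, stood at 21.7 ± 5.88 CPM in DHT and 9.81 ± 3.86 CPM in Vehicle libraries (SD, n = 6 each; log2 fold change 1.13; edgeR, adjusted p = 0.0378). The PPARGC1B call held in 2 of 12 fits with 1 library left out, those without DHT replicate 2 or Vehicle replicate 1, and the adjusted p ran up to 0.0970 in the other 10. Among 15 corepressor and coactivator genes of RXR-class receptors, all tested, 0 passed by edgeR and 3 had an unadjusted p under 0.05, 1 higher and 2 lower, with a median of -0.04.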

How the data were processed

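RNA was measured in 12 libraries of MDA-MB-453 cells (6 DHT, 6 Vehicle), sequenced as single reads of 40 bp from 1 µg of RNA per the labels' protocols. The labels name both poly-A RNA and a total RNA kit, so the RNA class is unsettled. The authors deposited estimated counts per gene. Per the submitters' processing notes, STAR and featureCounts were used with GRCh38, and versions were not given in the sources used here. Of the nonzero values in a library, 39.6% to 46.7% were not whole (tolerance 0.005). They were rounded before the test, which had been planned for raw counts. The table broke 1 gene over 3 lines, which was left out, and 60400 of the other 60670 identifiers had a symbol. Per the file headers, the authors also deposited their own log2 fold changes, log2 CPM, p-values, GC percent and transcript lengths, from a model not described.

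In R 4.3.3, genes passed filterByExpr (minimum count 10), were scaled by TMM and were tested with edgeR 4.0.16 (quasi-likelihood, group only, Benjamini-Hochberg threshold 0.05). SE is the log2 fold change divided by the root of F. CPM used TMM-scaled totals, and values per kb used the gene length of the counts table, which also gave the gene spans. Alternatives were DESeq2 1.42.0, limma-voom (limma 3.58.1), other scalings, filters and thresholds, unrounded counts, a replicate block and libraries left out. The test was also run on simulated counts with independent libraries and the same dispersion for every gene. These had no replicate 2 difference, so that run does not cover the spread of these libraries.

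The members and lists were chosen with earlier results of these data known. Values by library are given for members with an unadjusted p under 0.05, the 8 highest by CPM per kb and the 5 with the largest log2 fold change at a mean CPM of at least 1. From each other list up to 3 raised and 3 lowered genes are named. ESR1, PGR and NR3C1 were added, and FKBP5, FOXA1, GATA3 and TP63 came from marker lists. Other genes were named after their values were seen, and some items are not reported here. Floors cover counting error only.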

Additional observations from a re-analysis of the deposited data

Results flagged for a closer look

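Of 42 groups of 6 libraries (the 21 tested receptor genes in each treatment), 9 had a highest or lowest library whose gap to the nearest other was over the 95% critical value of Dixon's test, as a share of the group's range. Chance alone flags about 1 group in 20. The 42 groups come from the same 12 libraries and are not independent, so the 9 are not separate events. The rate over all genes is not given here.

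Replicate 2 was the library that stood apart in 6 of these 9. RXRA was highest there in Vehicle libraries, at 312.9 CPM, with the next at 218 CPM. RXRB was highest there in both groups, at 80.8 CPM in DHT (next 61.2 CPM) and 99.1 CPM in Vehicle (next 65.6 CPM). NR2F6 was highest there in DHT libraries, at 110.7 CPM (next 84.0 CPM), and PPARD in Vehicle libraries, at 236.7 CPM (next 183 CPM). NR2C2 was lowest there in DHT libraries, at 36.0 CPM (next 78.5 CPM).

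Replicate 5 was the library that stood apart in the other 3. PPARD was highest there in DHT libraries, at 150.2 CPM (next 137 CPM). NR1I3 was highest there in DHT libraries, at 3.77 CPM (next 2.43 CPM). NR2F1 was lowest there in Vehicle libraries, at 220.9 CPM (next 357 CPM).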

How the results depend on the processing

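Among all genes the 464 calls became 778 with DESeq2, 431 with upper-quartile scaling and 195 at adjusted p under 0.01. They became 920 without both replicate 2 libraries and 278 to 619 with 1 library left out. Among the receptor genes the 0 calls became 1 with DESeq2 and 1 with upper-quartile scaling (PPARD in each), 4 without both replicate 2 libraries and 0 to 2 with 1 library left out. Among the pathway genes and other receptors the 8 calls became 4 at adjusted p under 0.01, 13 without both replicate 2 libraries and 5 to 9 with 1 library left out. The cause of these shifts was not tested.

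The replicate number as a block gave 1286 calls among all genes, 4 among the receptor genes (RORA at adjusted p = 0.0052, ESRRA at 0.0207, NR6A1 at 0.0294 and PPARD at 0.0293, by edgeR) and 15 among the pathway genes. With the block and without both replicate 2 libraries, a choice made after seeing the data, these were 788, 2 (RORA and ESRRA) and 13. The numbers were not taken as pairs: deviations of same-numbered libraries correlated at 0.28 to 0.89 for 5 numbers and at -0.28 for replicate 5, and not every library correlated best with its own number.

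Of 482 values of single receptor genes under alternatives, 466 kept their side of the threshold, 16 passed it and 25 had the other sign, none of these among the 7 genes with an unadjusted p under 0.05. The number of expressed receptor genes was 19 to 22 under other thresholds. At 4346465 counts, Vehicle replicate 6 limits the low receptors most.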
